A study of Mus musculus with 6 samples.

Results

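The genes described here encode the 3 mammalian ligands of the transforming growth factor beta (TGF-beta) group, their receptors, the latent TGF-beta binding proteins and 1 matrix protein named for its induction by TGF-beta. They are the ligands Tgfb1, Tgfb2 and Tgfb3, the receptors Tgfbr1, Tgfbr2 and Tgfbr3, the binding proteins Ltbp1, Ltbp2 and Ltbp3, and Tgfbi. They were taken as the non-control probes whose RefSeq accession belongs to 1 of these 10 genes, which gave 14 of the 55681 non-control probes on the array. All 14 probes were well above background on all 6 arrays, and the 10 genes were among 25494 tested features.

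RNA came from tibial cartilage of C57BL/6 mice, 3 labelled as controls and 3 labelled ADAM10 flox/flox-Col2a1-Cre (called mutants here). Both alleles of Adam10, a membrane protease that sheds cell surface proteins and cleaves Notch receptors, are loxP-flanked in the mutants. Cre recombinase is driven there by the Col2a1 promoter, which is active in the chondrocyte lineage. Adam10 was measured here only in whole tissue, not by cell type. Strain and tissue are shared by all 6 mice. The sources used here give neither the alleles of the controls, nor the floxed exon, nor the age of the mice. Each array held the RNA of 1 mouse on an Agilent 1-colour mouse expression array.

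TGF-beta ligands are secreted in a latent form, held by their own propeptide, and the LTBP proteins tether that complex to fibrillin fibres of the matrix. Once freed by integrins or proteases, the ligand binds the type II receptor Tgfbr2, which recruits and phosphorylates the type I receptor Tgfbr1. Tgfbr1 then phosphorylates Smad2 and Smad3. In the growth plate this signal restrains hypertrophic maturation of chondrocytes, and in joints it helps to maintain articular cartilage.

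Values are log2 signals relative to the 75th percentile of each array, so a value of 1 is a signal 2-fold above that percentile. Differences are mutant minus control. Signals of different probes cannot be set against each other, so each gene is compared only with itself across arrays. All 12 chondrocyte markers looked up were well above background on all 6 arrays. That does not single out cartilage, as 10 of 10 endothelial and 9 of 10 muscle markers were so too. On each array 62.4% to 65.4% of all spots were well above background. Adam10 signal lay between 1.21 and 1.61 in controls and between -1.70 and 0.31 in mutants, with mutant 2 lowest. Its probe cannot be placed inside or outside the deleted part. Mutant 2 and control 1 stood apart from the other arrays, at 71.0 and -55.3 on the first principal component, where the other 4 lay between -14.0 and 15.2. All 6 arrays were on 1 slide, with the controls and mutant 1 in its first row and mutants 2 and 3 in its second. Xist signal was 1.88 on control 1 and 2.05 on mutant 3, and -3.66 or lower on the other 4 arrays. Ddx3y signal ran the other way, at -7.34 on control 1, -4.57 on mutant 3 and 2.02 to 2.15 on the other 4. The labels do not give the sex of the mice.

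Of the 10 genes, Tgfbr1 alone had a lower signal on every mutant array than on every control array, and the other 9 overlapped between the groups. No gene passed the threshold of 0.05 on p-values adjusted by Benjamini-Hochberg over all features in limma, where 0% of the 25494 features did. At an unadjusted limma p below 0.05 there were 0 higher and 1 lower of the 10 genes, against 1.55% higher and 1.89% lower of all features, or 3.44% together. The groups did not overlap for 1 of the 10 genes, against 8.95% of all features, of which 3.75% were lower and 5.19% higher. A share of 1 in 10 is near that background. The 10 differences ran from -0.33 to 0.10, with 5 below 0 and a median of 0.01. Over all features the median was 0.04 and 40.0% lay below 0.

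**Figure D1:**
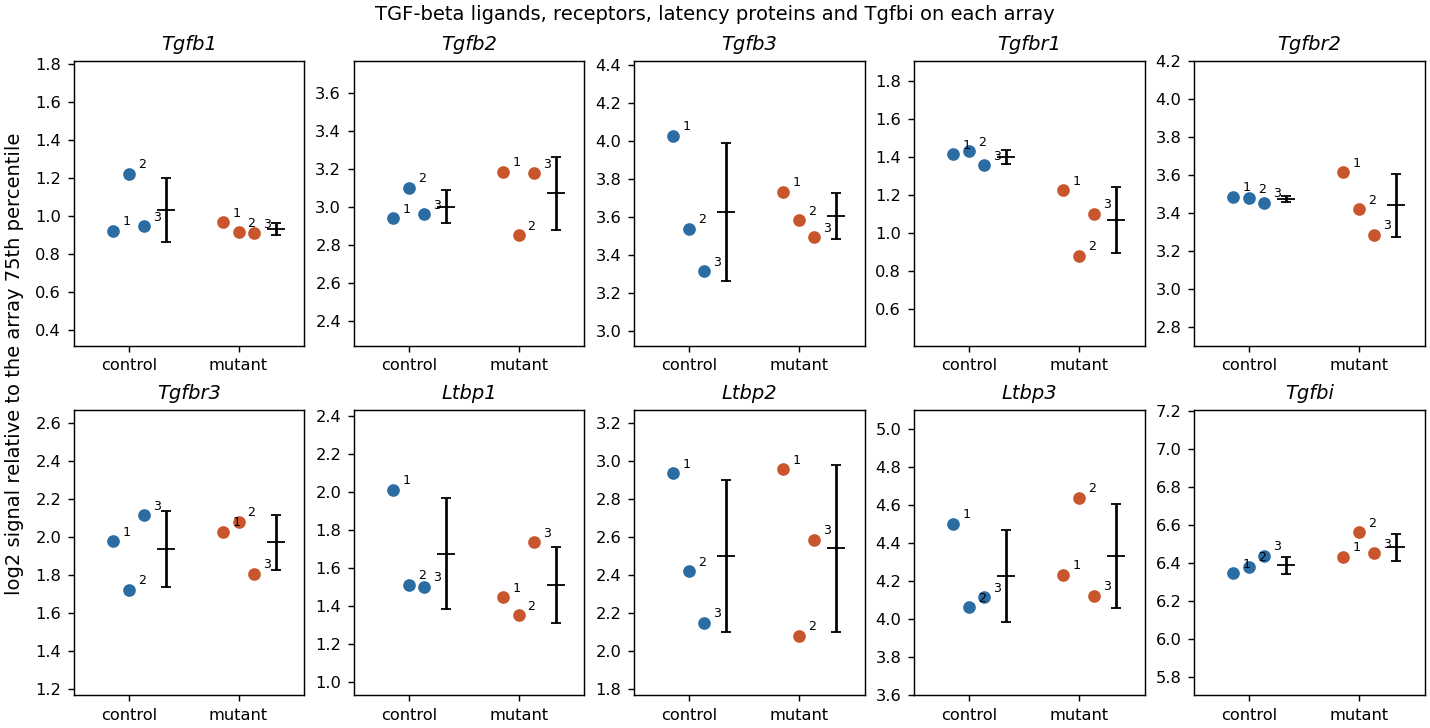
Log2 signal relative to the array 75th percentile for each of the 10 genes, with 1 point per array numbered by replicate, controls in blue and mutants in orange, and the mean with its SD (n = 3) beside each group; every panel spans the same log2 range. The groups overlap in every panel except Tgfbr1, whose controls lie at 1.36 to 1.43 and mutants at 0.88 to 1.23.

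Tgfb1, the ligand most abundant in bone matrix and platelets, read 0.92, 1.23 and 0.95 in the controls and 0.97, 0.92 and 0.91 in the mutants, given here and throughout in the order of their replicate numbers. Only control 2 stood above a band of 0.91 to 0.97 that held the other 5 arrays. The group means were 1.03 ± 0.17 (SD, n = 3) and 0.93 ± 0.03 (SD, n = 3), a difference of -0.10 (SE 0.13, 95% interval -0.41 to 0.21). The adjusted limma p was 0.987. Without control 2 the difference was -0.0037.

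The Tgfb1 probe was printed on 10 spots of each array, which shows the measurement error within an array. The SD over these spots was 0.041 to 0.059, and control 2 lay farther than that from the other arrays. Tgfb3, the other ligand with 10 spots, had a spot SD of 0.023 to 0.041 after 1 to 3 outlier spots per array were left out. Its arrays spread over 0.71 on the log2 scale, many times the spot error.

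**Figure D2:**
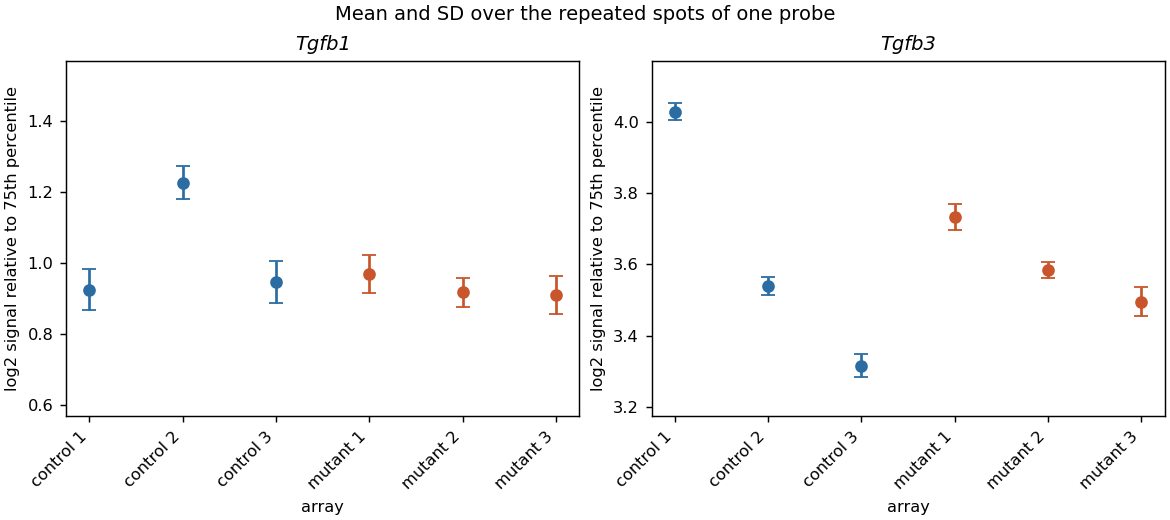
Mean and SD over the repeated spots of the Tgfb1 probe and the Tgfb3 probe on each array, as log2 signal relative to the array 75th percentile, controls in blue and mutants in orange. For Tgfb1 only control 2, at 1.23, stands off, while for Tgfb3 control 1, at 4.03, and control 3, at 3.32, mark the ends.

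Tgfb3, a ligand known for its role in palate closure and wound repair, read 4.03, 3.54 and 3.32 in controls and 3.73, 3.59 and 3.49 in mutants. The mutants lay inside the range of the controls. The means of 3.63 ± 0.37 (SD, n = 3) and 3.60 ± 0.12 (SD, n = 3) differed by -0.02 (SE 0.20, 95% interval -0.51 to 0.47, adjusted limma p 0.993). The sign was not stable: the difference was 0.18 without control 1 and 0.032 without mutant 3.

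Tgfb2, a ligand whose loss in mice disturbs cartilage and bone formation, was measured by 2 probes. The brighter probe read 2.94, 3.10 and 2.96 in controls and 3.18, 2.85 and 3.18 in mutants. Mutants 1 and 3 were the highest arrays and mutant 2 the lowest. The same held at the second probe, with mutants 1 and 3 in the other order. The differences were 0.07 (SE 0.14, 95% interval -0.27 to 0.41) and, at the second probe, 0.09 (SE 0.19). The adjusted limma p-values were 0.987 and 0.995.

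Tgfbr1, the type I receptor that carries the signal into the cell, read 1.42, 1.43 and 1.36 in controls and 1.23, 0.88 and 1.104 in mutants at its brighter probe. The lowest control lay above the highest mutant, and mutant 2 was lowest. The means were 1.40 ± 0.04 (SD, n = 3) and 1.07 ± 0.17 (SD, n = 3), with a difference between them of -0.33 (SE 0.13, 95% interval -0.65 to -0.02), a 1.26-fold lower signal in mutants. Limma gave an unadjusted p of 0.0419 and an adjusted p of 0.987. A two-sided exact permutation test gave 0.1, and no smaller p is possible with 3 arrays in each group.

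The second Tgfbr1 probe also separated the groups, with -2.89, -2.72 and -2.56 in controls and -3.12, -3.34 and -2.96 in mutants. Again mutant 2 was lowest. Its difference was -0.42 (SE 0.16, 95% interval -0.79 to -0.04). In limma over all 35228 probes its unadjusted p was 0.0353 and its adjusted p 0.995. Of the 14 probes these 2 were the ones at an unadjusted limma p below 0.05 and the ones whose groups did not overlap. Over all probes those shares were 3.44% (1.78% lower) and 8.79% (3.51% lower). Both probes carry the same accession, so they are 2 readings of 1 transcript in the same 6 mice, and the gap between them varied over arrays with an SD of 0.16.

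The Tgfbr1 difference stayed below 0 in all 25 alternatives, but its size and call depended on the arrays. Where arrays were only left out, that sign was fixed in advance, as every mutant lay below every control. The replicate block and the variance trend could not move the difference of -0.33 either. The constant sign is therefore no added support. Without mutant 2 the difference was -0.24. It was -0.17 among the arrays of the first slide row, where mutant 1 is the only mutant. The slide row as a block gives the same -0.17 by design, because the second row holds no control. When single arrays were left out the unadjusted limma p ran from 0.0359 to 0.113, and it was below 0.05 only without mutant 1.

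Markers of other cell types also had lower signals on the mutant arrays. Of the macrophage list 9 of 9 tested markers had a difference below 0, 3 of them at an unadjusted limma p below 0.05, against 1.89% of all features lower at that p. Their summed signal, as a ratio to the 75th percentile, was 30.26 to 38.57 in controls and 7.95 to 27.58 in mutants. Cd163, another marker on it, never exceeded background clearly enough to be tested. Of the osteoclast list 10 of 10 were below 0, with summed signals of 244.2 to 333.5 and 35.86 to 167.4. Of the endothelial list 9 of 10 were below 0, with 48.9 to 62.29 and 26.82 to 58.28. All 3 lists were lowest on mutant 2, like Tgfbr1. That was not particular to them. Lists of osteoblast, muscle and adipocyte markers were lowest there too, with scores of -1.17, -2.64 and -2.02. So were the megakaryocyte and platelet list and the tendon and fibroblast list, while the chondrocyte list was highest there, at 0.37. Blood cell lists also lay lower in mutants, with 8 of 8 neutrophil, 10 of 10 erythroid and 8 of 8 B cell markers below 0. In these lists control 3 was as low as the mutants. The erythroid score was -1.25 in control 3, the lowest of the 6 arrays, and 1.84 and 0.92 in controls 1 and 2. Of the chondrocyte list 11 of 12 markers were above 0. With the macrophage score as a covariate, an alternative chosen after seeing the data, the Tgfbr1 difference was -0.15 (SE 0.14, unadjusted limma p 0.342). With the endothelial score it was -0.17 (unadjusted limma p 0.243), and with a marrow score, the mean of the blood cell lists, it was -0.32 (unadjusted limma p 0.135). The macrophage score was 0.62, 0.81 and 0.27 in controls and -0.04, -1.70 and 0.03 in mutants, without overlap. The endothelial score did not overlap between the groups either. Fits with the macrophage or the endothelial score therefore cannot part the score from the genotype. The marrow score did overlap, with control 3 at -0.98 and mutants at -1.05 to -0.21. The cause of the smaller differences was not tested. In whole tissue, fewer cells of a type and less RNA per cell cannot be told apart.

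**Figure D3:**
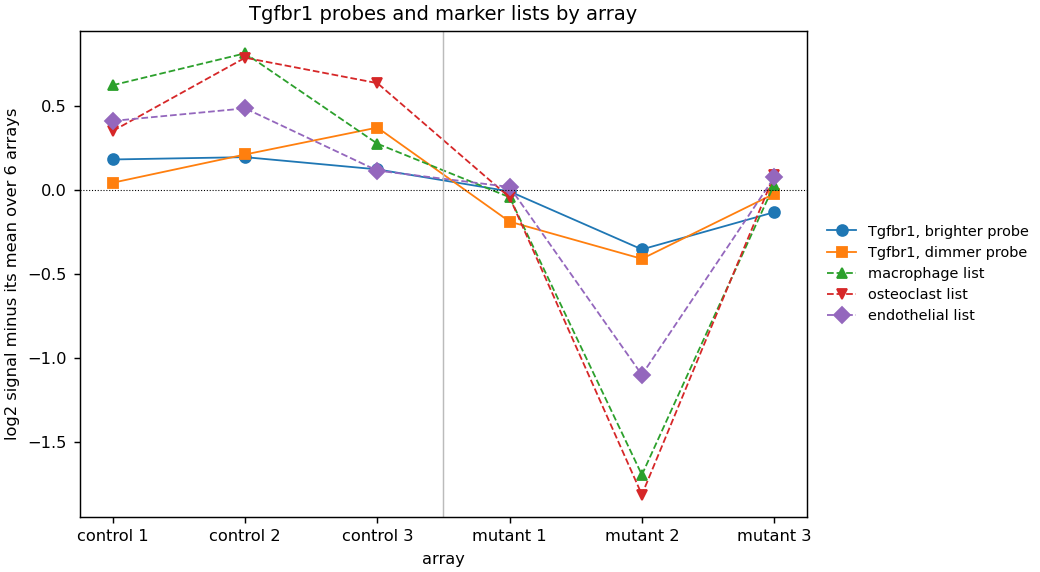
Log2 signal minus its mean over the 6 arrays for the Tgfbr1 probes (solid lines) and the mean of the macrophage, osteoclast and endothelial marker lists (dashed lines); lines only join points of 1 series and the grey line parts controls from mutants. All 5 series are lowest on mutant 2, where the macrophage list stands at -1.70 and the osteoclast list at -1.81. Some marker lists of other cell types, not drawn, were lowest there too.

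The genes whose signal followed Tgfbr1 most closely over the 6 arrays, out of 15659 with a symbol, were Jak1, a kinase of cytokine receptors (Pearson r = 0.998), Dock2, a guanine exchange factor of blood cells (r = 0.995), and Ugt1a10 (r = 0.994). These correlations describe the 6 arrays, 3 per group, and the arrays share a slide and a scaling. In all, 367 genes had an r above 0.9.

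The sequence before the start of Tgfbr1 is shown because this was the gene whose probes separated the groups, with that of Tgfbr2, its partner in the receptor complex, which overlapped. RefSeq windows of 250 bases before a transcript start were found for 8 of the 10 genes, in build GRCm38.p6, with 2 starts each for Tgfbr1 and Ltbp1. Tgfb3 and Tgfbr3 had no entry. Capitals mark the GC box GGGCGG, a site of Sp1 family factors, and CAGAC, the core of a Smad binding element, or CCGCCC and GTCTG, their reverse complements. Neither motif overlaps the other in these windows, which are printed in the direction of transcription. The windows are, in order, chr4:47352972-47353221 (plus strand), chr4:47385966-47386215 (plus strand) and chr9:116175364-116175613 (minus strand).
Tgfbr1, first start: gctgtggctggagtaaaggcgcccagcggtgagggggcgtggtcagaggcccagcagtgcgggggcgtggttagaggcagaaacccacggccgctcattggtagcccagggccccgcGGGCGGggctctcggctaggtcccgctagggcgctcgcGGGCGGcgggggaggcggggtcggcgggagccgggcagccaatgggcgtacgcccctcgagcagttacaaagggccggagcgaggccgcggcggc
Tgfbr1, second start: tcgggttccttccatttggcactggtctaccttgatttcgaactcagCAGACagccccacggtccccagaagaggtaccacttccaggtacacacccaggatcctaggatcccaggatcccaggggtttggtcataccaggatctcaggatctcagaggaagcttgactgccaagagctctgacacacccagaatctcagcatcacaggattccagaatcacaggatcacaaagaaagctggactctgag
Tgfbr2: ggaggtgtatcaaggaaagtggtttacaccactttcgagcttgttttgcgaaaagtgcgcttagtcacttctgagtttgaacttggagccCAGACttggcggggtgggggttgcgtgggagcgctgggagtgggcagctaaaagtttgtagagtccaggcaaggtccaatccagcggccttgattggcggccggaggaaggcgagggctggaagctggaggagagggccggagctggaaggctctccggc
The first Tgfbr1 window held 2 GC boxes and 0 CAGAC matches, with 74.8% G and C, against a median of 52.4% over all 32851 windows. The second held 0 GC boxes and 1 CAGAC match, as did the Tgfbr2 window. Of all windows of this length 32.7% held a GC box and 42.2% held CAGAC. Tgfb1 had the most GC boxes of the matched genes, at 5. These matches describe letters only.

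Tgfbr2, the type II receptor that binds the ligand first, read 3.49, 3.48 and 3.46 in controls and 3.62, 3.42 and 3.29 in mutants. The controls lay within 0.03 of each other, and the mutants spread to both sides of them. The difference was -0.03 (SE 0.13, 95% interval -0.34 to 0.27, adjusted limma p 0.990). The second Tgfbr2 probe read -0.44, -0.51 and -0.27 in controls and -0.53, -0.91 and 0.09 in mutants, a difference of -0.04 (SE 0.26). The probes ordered the mutants differently, with mutant 3 lowest on the brighter probe and highest on the dimmer one, and the gap between them varied with an SD of 0.40.

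Tgfbr3, or betaglycan, is a co-receptor that presents ligand, above all the product of Tgfb2, to Tgfbr2. It read 1.98, 1.72 and 2.12 in controls and 2.03, 2.08 and 1.81 in mutants. The groups overlapped fully, with control 2 lowest and control 3 highest. The difference was 0.03 (SE 0.15, 95% interval -0.33 to 0.40, adjusted limma p 0.991).

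Ltbp1, the binding protein that anchors latent TGF-beta in the matrix of many tissues, read 2.01, 1.51 and 1.50 in controls and 1.45, 1.35 and 1.74 in mutants. Control 1 was highest and mutant 2 lowest. The means of 1.68 ± 0.29 (SD, n = 3) and 1.51 ± 0.20 (SD, n = 3) differed by -0.17 (SE 0.19, 95% interval -0.62 to 0.29, adjusted limma p 0.987). Without control 1 the difference was 0.0030.

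Ltbp2, a fibrillin-binding member that does not bind latent TGF-beta, varied most of the 10 genes. It read 2.94, 2.42 and 2.15 in controls and 2.96, 2.08 and 2.59 in mutants. Control 1 and mutant 1 were together at the top, and control 3 and mutant 2 at the bottom. Its SD over the 6 arrays, 0.38, lay at the 79.1st percentile of all features, while its difference was 0.04 (SE 0.29, 95% interval -0.66 to 0.74, adjusted limma p 0.993). That value depended on the setting, at 0.44 with array weights, 0.46 with the slide row as a block, 0.49 without control 1 and mutant 2, and -0.17 without mutant 1.

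A list of 10 skeletal muscle markers had a similar order of arrays, with scores of 2.23, -0.80 and -0.80 in controls and 1.46, -2.64 and 0.56 in mutants. Its summed signal was 110.6 to 803.7 in controls and 34.4 to 470.2 in mutants. A list of 10 tendon and fibroblast markers also had control 1 highest, at 0.98, and mutant 2 lowest, at -0.71. Its summed signal did not follow that order, with mutant 2 second to control 1 at 139.7. The adipocyte list scored 0.84, -0.12 and -0.18 in controls and 0.54, -2.02 and 0.94 in mutants. A likeness to Ltbp2 was thus not particular to muscle, and no fit used the adipocyte score. With the muscle score as a covariate, chosen after seeing the data, the SE of the Ltbp2 difference was 0.12 and the difference 0.13 (unadjusted limma p 0.355). The genes most like Ltbp2 over the 6 arrays were Cadm3, a cell adhesion molecule of nerve (r = 0.990), Susd2 (r = 0.988) and Kremen1 (r = 0.986), and 338 genes lay above 0.9. As for Tgfbr1, these are descriptions of 6 arrays.

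**Figure D4:**
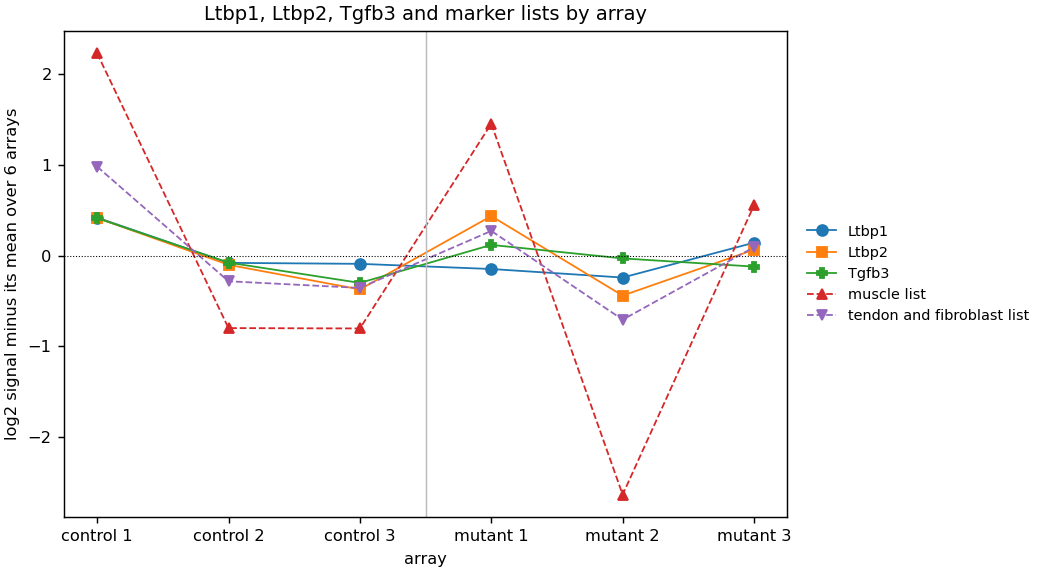
Log2 signal minus its mean over the 6 arrays for Ltbp1, Ltbp2 and Tgfb3 (solid lines) and the mean of the muscle and of the tendon and fibroblast marker lists (dashed lines); lines only join points of 1 series and the grey line parts controls from mutants. Ltbp2 and the muscle list are high on control 1 and mutant 1 and lowest on mutant 2.

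Ltbp3, the member that is needed for normal growth plate and bone development, was measured by 2 probes. The brighter read 4.50, 4.06 and 4.11 in controls and 4.23, 4.64 and 4.12 in mutants, and the dimmer 4.001, 3.58 and 3.51 in controls and 3.81, 4.05 and 3.56 in mutants. On both probes mutant 2 and control 1 stood above the other 4 arrays. The gap between the probes varied over arrays with an SD of 0.070, against an SD of 0.24 for either probe, so the spread between arrays exceeded the disagreement of the probes. The differences were 0.10 (SE 0.19, 95% interval -0.36 to 0.57) and 0.11 (SE 0.20), with adjusted limma p-values of 0.987 and 0.995. Without mutant 2 the difference of the brighter probe was -0.049.

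Tgfbi, a secreted matrix protein that binds collagens and integrins, varied least. It read 6.34, 6.38 and 6.44 in controls and 6.43, 6.56 and 6.45 in mutants. Mutant 2 was highest, and control 3 lay within the range of the mutants. The means of 6.39 ± 0.05 (SD, n = 3) and 6.48 ± 0.07 (SD, n = 3) differed by 0.09 (SE 0.11, adjusted limma p 0.987). The 95% interval, from 1.12-fold lower to 1.28-fold higher, was the narrowest of the 10. Its SD over arrays lay at the 3.05th percentile of all features.

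Read by array, mutant 2 held the lowest value of 4 of the 10 genes (Tgfb2, Tgfbr1, Ltbp1 and Ltbp2) and the highest of 2 (Ltbp3 and Tgfbi). Control 1 held the highest value of Tgfb3 and Ltbp1 and the lowest of Tgfbi. These 2 arrays, the outermost on the first component, thus held the highest or the lowest value of 7 of the 10 genes, against 83.1% of all features.

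Of 54 other genes of the pathway, listed by role, 51 were tested, and Itgb6, Itgb8 and Bambi did not pass the filter on dim probes. There were 30 below 0 and 21 above, with a median of -0.04. At an unadjusted limma p below 0.05, 2 were lower and 0 higher, and no gene passed after adjustment over all features. The groups did not overlap for 5 of the 51, 4 lower and 1 higher. Both totals lie near the shares of all features, 3.44% at that p and 8.95% without overlap. By direction these shares were 1.89% lower and 1.55% higher at that p, and 3.75% lower and 5.19% higher without overlap. The counts of lower genes lay above their shares and those of higher genes below, on few genes.

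Among 6 genes of latency and matrix binding, Nrros, which holds latent TGF-beta on cells of the myeloid lineage, read 1.62, 1.73 and 1.31 in controls and 0.90, -0.15 and 1.13 in mutants. All mutants lay below all controls, and mutant 2 was lowest. The difference was -0.93 (SE 0.34), with an unadjusted limma p of 0.0321 and an adjusted p of 0.987, beside the macrophage list described with Tgfbr1. Emilin1, an inhibitor of ligand processing, and the fibrillin Fbn2 differed by 0.16 (SE 0.16) and -0.25 (SE 0.30). Ltbp4, named after its values were seen as the remaining LTBP gene, read 4.31, 3.31 and 3.01 in controls and 3.97, 2.85 and 3.74 in mutants with control 1 highest and mutant 2 lowest, as in the muscle list. Its difference was -0.02 (SE 0.42).

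Of 7 tested genes of ligand activation, Itgb3, the integrin beta 3 chain abundant on osteoclasts and platelets, read 2.30, 2.46 and 2.14 in controls and 1.64, 0.46 and 1.98 in mutants. The groups did not overlap, and mutant 2 was again lowest. Its difference was -0.94 (SE 0.38), with an unadjusted limma p of 0.0479 and an adjusted p of 0.987. Itgb3 is also 1 of the 10 osteoclast markers. Thbs1, a matrix protein that can free the ligand, and Furin, which cleaves the propeptide, differed by 0.25 (SE 0.20) and 0.14 (SE 0.17).

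The 4 tested genes of other receptors were all below 0. Eng, a co-receptor of endothelium and 1 of the 10 endothelial markers, read 1.13, 0.99 and 0.82 in controls and 0.78, 0.11 and 0.80 in mutants. Its groups did not overlap, with a difference of -0.41 (SE 0.22, adjusted limma p 0.987). Vasn and Cd109, which bind TGF-beta at the cell surface or its receptor, differed by -0.12 (SE 0.12) and -0.14 (SE 0.15).

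The 6 signal transducers lay within a narrow band above 0, from 0.07 to 0.12, against the median of 0.04 over all features. The receptor-activated Smad2 and Smad3 both differed by 0.12 (SE 0.14), and their partner Smad4 by 0.12 (SE 0.12). None had an unadjusted limma p below 0.05, and the groups overlapped for each.

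Of 12 inhibitors, 7 were below 0. Smad6, which restrains chiefly BMP receptors, read 0.18, 0.15 and 0.07 in controls and -0.01, -0.23 and -0.02 in mutants, without overlap. Its difference was -0.22 (SE 0.12, adjusted limma p 0.987). Pmepa1, a TGF-beta target that traps Smad proteins, differed by -0.53 (SE 0.30), with mutant 2 at 1.04 against 1.94 to 2.37 on the other arrays. Smurf1, a ubiquitin ligase, differed by -0.13 (SE 0.11).

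Of 16 target genes, 10 were below 0 and 6 above. Cdkn1a, the cell cycle inhibitor p21, read 2.28, 2.39 and 2.59 in controls and 2.80, 2.60 and 2.80 in mutants. All mutants lay above all controls, although mutant 2 and control 3 nearly met, and the difference was 0.32 (SE 0.14, unadjusted limma p 0.0574, adjusted p 0.987). Col1a2, a chain of type I collagen, differed by -0.22 (SE 0.14), and Timp3, an inhibitor of matrix proteases, by 0.25 (SE 0.18).

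**Figure D5:**
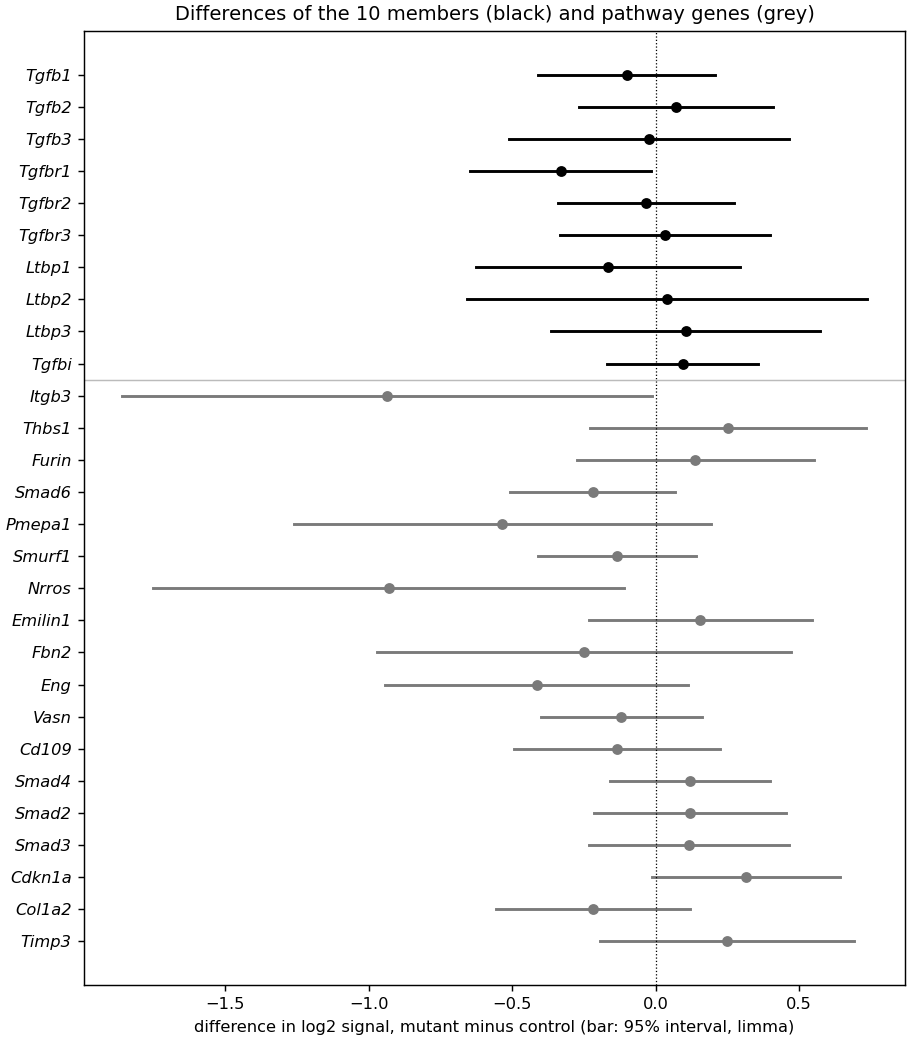
Difference in log2 signal, mutant minus control, with its 95% interval from limma, for the 10 genes (black) and, in each role, the 3 other pathway genes with the smallest p (grey). The interval excludes 0 for Tgfbr1 among the 10 and for Nrros and Itgb3 among the grey genes, each before adjustment over all features.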

How the data were processed

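Tibial cartilage RNA of 6 mice was labelled with Cy3, per the labels' protocols (their label entry says Cy5), and scanned in 1 channel, per the file headers. The authors' deposited scanner files hold spot intensity values. The submitters' processing notes name Agilent Feature Extraction 10.7.1.1, and the file headers name build mm9 for the array design. The processed signal is background-subtracted and not normalized between arrays. A second table deposited by the authors holds linear ratios to each array's 75th percentile, to judge by its values: every column had a 75th percentile of 1 and a median of 0.094 to 0.104. How it was made is not given in the sources used here.

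Probe accessions were matched, without version, to RefSeq genes of GRCm38.p6, which named 27656 of 55681 probes. Control and outlier spots were left out, log2 signals were set relative to the array's 75th percentile over 59305 non-control spots, and spots of a probe were averaged. Probes well above background (over 50% of their spots) on at least 3 of 6 arrays were kept (35228), and the brightest probe stood for a gene (25494 features). The 75th percentile was 510.3 to 631.0 intensity units, 62.4% to 65.4% of the spots on an array exceeded background well, and 0 were saturated. The number of arrays limits the precision.

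Groups were compared with limma 3.58.1 (R 4.3.3), with two-sided p-values adjusted by Benjamini-Hochberg across the features or the probes and a threshold of 0.05; the script was tested on simulated data. The score of a marker list averages its genes' log2 signals, each after subtracting the gene's mean across arrays. The rule for named genes was the 10 members, the 3 pathway genes per role with the smallest p, and the 3 genes most correlated with the member of largest SD and with that of smallest p; Ltbp4 was added later. The members, lists and tests were chosen with earlier results of these data known, so none is independent support. The 25 alternatives changed the background correction (normexp, offset 50, on median signals), scaling, filter, choice of probe, variance model, blocks, marker score covariates and arrays, 2 of them chosen after seeing the data (the muscle and the macrophage score as covariates).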

Additional observations from a re-analysis of the deposited data

How the results depend on the processing

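No call rests on adjusted p-values: limma called 0 features in 24 of the 25 alternatives, which tested 23317 to 36975 features, and 4 with array weights, where none of the 10 genes was called. At an unadjusted limma p below 0.05, the count among the 10 genes was 1. It was 0 with median scaling, no filter on dim probes, a replicate block, the slide row as a block, the marrow, endothelial or macrophage score as a covariate, the first slide row only, the 4 arrays with low Xist signal only (control 2, control 3, mutant 1 and mutant 2), or control 1 and mutant 2 left out together. It was 2 with array weights, where Ltbp2 joined Tgfbr1 at 0.44 (unadjusted limma p 0.0455), and 0 to 1 when single arrays were left out. Among the 14 probes the count of 2 was 1 under these same settings and with a variance trend and robust fit, but 0 with the slide row as a block or the first slide row only, and 0 to 1 without single arrays. It was 2 with array weights. Among 51 pathway genes the count of 2 was 7 with array weights, 5 with the muscle or macrophage score, 4 without control 1 and mutant 2, 1 with quantile scaling or no filter, and 0 with the replicate block, slide row block or marrow score. Leaving out single arrays gave 0 to 4. Of single genes, Tgfb1 and Tgfbr1 kept their direction throughout, which for Tgfbr1 was fixed in advance wherever arrays were only left out. The slide row as a block and the first row only give the same difference by design, with mutant 1 as the only mutant behind it. Tgfb2 was -0.013 on the low-Xist arrays, and Tgfbi was -0.00023 with normexp and quantile scaling. Tgfb3 was 0.0044 with normexp and percentile scaling, 0.16 with array weights, 0.11 with the slide row as a block or the first row only, 0.21 with the marrow, 0.049 with the endothelial, 0.015 with the muscle and 0.042 with the macrophage score, 0.23 on the low-Xist arrays, 0.19 without control 1 and mutant 2, and -0.18 to 0.18 without single arrays. Tgfbr2 was 0.074 with array weights, 0.14 with the slide row as a block or the first row only, 0.052 on the low-Xist arrays, and -0.12 to 0.045 without single arrays. Tgfbr3 was -0.090, -0.11 and -0.13 with the marrow, endothelial and macrophage scores, -0.0016 without control 1 and mutant 2, and -0.074 to 0.12 without single arrays. Ltbp1 was 0.035 and 0.0067 with the marrow and macrophage scores, 0.083 without control 1 and mutant 2, and -0.28 to 0.0030 without single arrays. Ltbp3 was -0.13 and -0.18 with the endothelial and macrophage scores and -0.049 to 0.24 without single arrays, and Ltbp2, at 0.04, was 0.46 with the slide row as a block or the first row only, 0.29, 0.47 and 0.52 with the marrow, endothelial and macrophage scores, 0.49 without control 1 and mutant 2 (unadjusted limma p 0.057), 0.23 on the low-Xist arrays, and -0.17 to 0.27 without single arrays. The cause of these changes was not tested, beyond fewer arrays where arrays were left out. The labels do not say whether the replicate numbers pair the mice. Same-numbered arrays correlated at 0.207, 0.061 and -0.164 in their deviations, and differently numbered ones at -0.233 to 0.245. These values cannot show whether the mice were paired. With the replicate block the Tgfbr1 difference was -0.33 (unadjusted limma p 0.0768). No scaling moved the median of all features by over 0.1. The mean of a gene's probes gave no value over probes.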
